A study of Arabidopsis thaliana with 8 samples.

Results

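The circadian clock of Arabidopsis thaliana was followed through 10 of its core genes, which were taken by name and identifier from the 18855 genes listed in the deposited expression tables. All 10 were listed: CCA1 (AT2G46830), LHY (AT1G01060), TOC1 (AT5G61380), PRR5 (AT5G24470), PRR7 (AT5G02810), PRR9 (AT2G46790), GI (AT1G22770), ELF3 (AT2G25930), ELF4 (AT2G40080) and LUX (AT3G46640). They were listed by name, although with earlier results of these data known. RNA-seq libraries came from whole seedlings of 3 genotypes, aged 12 days and given no treatment. The first genotype, SPCHΔ49, carried 35S:SPCHΔ49, a deletion form of the stomatal lineage factor SPEECHLESS that escapes degradation triggered by MAP kinases, and had 3 libraries. The second, SPCHΔ49 basl-2, carried the same transgene in the basl-2 mutant, which lacks normal function of the polarity gene BASL, and also had 3 libraries. The third, WT, carried neither and had 2 libraries. The 35S promoter is active in most plant tissues, so the transgene was not limited to the stomatal lineage. The number of transgenic lines, and whether libraries of a genotype came from separately grown seedlings, is not given in the labels. Every p-value therefore rests on the spread among these libraries, which may be technical. Seeds of all samples were imbibed for 3 days at 4 °C. All seedlings were grown at 22 °C in 16 h of light (100 µmol per m² per s) and 8 h of darkness. The hour of harvest was not given. Since clock transcripts rise and fall within a day, genotype and hour of harvest cannot be told apart in any comparison below.

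The plant clock is a loop of transcriptional repressors that act in sequence over the day. CCA1 and LHY, a pair of related MYB factors, peak near dawn and repress genes expressed in the evening. The pseudo-response regulators PRR9, PRR7, PRR5 and TOC1 follow one another from morning to evening and repress CCA1 and LHY. At dusk, LUX, a DNA-binding factor, ELF3, a scaffold, and ELF4 form the evening complex, which represses growth genes and other clock genes at night. GI, a large protein of the afternoon, stabilises the F-box protein ZTL, which in turn marks TOC1 and PRR5 for degradation. In leaves this clock times photosynthetic gene expression, stomatal opening and growth.

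The values analysed are the deposited signals, a normalised and length-corrected abundance per gene that the authors named TPM. Library totals of this signal were 852202 to 1075376, and the median gene had 12.3 to 13.6. SPCH itself checked the labels, with 2491 ± 136 in SPCHΔ49, 407 ± 74.9 in SPCHΔ49 basl-2 and 6.92 ± 1.80 in WT (SD, n = 3, 3 and 2). BASL had 51.0 ± 13.6 in SPCHΔ49, 2.74 ± 0.581 in SPCHΔ49 basl-2 and 3.43 ± 0.127 in WT. Tissue markers also moved with genotype. The summed signal of 15 listed root markers was 3.53 to 4.27% of the WT mean in SPCHΔ49 and 6.32 to 10.1% in SPCHΔ49 basl-2, with 3 and 4 of them at 0 in every library of each line. The sum of 9 mesophyll markers was 45.2 to 62% and 63.9 to 72.4% of the WT mean in SPCHΔ49 and SPCHΔ49 basl-2, that of 12 vascular markers 57.9 to 67.5% and 66.2 to 84.1%, and that of 13 guard cell markers 135 to 157% and 171 to 210%. Abundant genes carried some of these sums: TGG1 alone had 799 ± 4.07 of the guard cell sum of 886 to 911 in WT, and 4 of the 9 mesophyll markers (PRK, LHCB2.1, LHCB3 and PSBO1) overlapped between SPCHΔ49 basl-2 and WT. Of the vascular markers in SPCHΔ49 basl-2, 9 lay below WT in every library, SUC2 and APL overlapped it, and AHA3 rose (77.4 ± 6.69 against 59.25 ± 0.153, limma adjusted p = 0.0184). Of the root markers in that line, 14 lay below WT in every library, while CASP2 overlapped it (10.8 ± 6.37 against 11.4 ± 0.642). The guard cell marker KAT1 overlapped between SPCHΔ49 and WT. In whole seedlings, fewer cells of a type and less RNA per cell cannot be told apart, and the part of this altered tissue makeup in the clock results was not tested.

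The promoters of the 5 clock genes that changed in at least one line, and that of TOC1, are printed here. Each is the 250 bases before the annotated gene start in RefSeq's TAIR10.1 assembly, read 5′ to 3′ on the gene's own strand. The annotation places no other gene in these windows, and the build the authors used was not given in the sources used here. Capitals mark matches to 6 short motifs searched on both strands: the evening element AAAATATCT, the CCA1-binding site AAAAATCT, the G-box CACGTG, the LUX-binding words GATACG and GATTCG, and the TCP-binding word GGTCCCAC. A match on the opposite strand is printed as its reverse complement. The windows are chr2:19245341-19245590 (plus strand) for CCA1, chr1:37872-38121 (minus) for LHY, chr5:642031-642280 (minus) for PRR7, chr2:11058694-11058943 (plus) for ELF3, chr3:17182792-17183041 (plus) for LUX and chr5:24674713-24674962 (plus) for TOC1.
CCA1: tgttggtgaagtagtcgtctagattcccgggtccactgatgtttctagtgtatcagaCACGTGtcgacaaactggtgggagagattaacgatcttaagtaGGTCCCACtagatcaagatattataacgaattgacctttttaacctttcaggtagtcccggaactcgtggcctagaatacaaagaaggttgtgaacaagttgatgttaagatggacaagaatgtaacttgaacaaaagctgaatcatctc
LHY: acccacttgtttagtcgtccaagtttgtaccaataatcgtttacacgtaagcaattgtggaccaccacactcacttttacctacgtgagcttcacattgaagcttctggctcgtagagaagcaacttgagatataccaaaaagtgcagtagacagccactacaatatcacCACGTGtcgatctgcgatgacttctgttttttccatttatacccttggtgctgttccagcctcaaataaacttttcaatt
PRR7: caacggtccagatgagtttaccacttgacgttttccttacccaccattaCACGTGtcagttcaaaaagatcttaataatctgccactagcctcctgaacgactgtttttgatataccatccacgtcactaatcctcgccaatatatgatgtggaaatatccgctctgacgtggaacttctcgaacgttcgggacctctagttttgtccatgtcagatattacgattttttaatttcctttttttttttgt
ELF3: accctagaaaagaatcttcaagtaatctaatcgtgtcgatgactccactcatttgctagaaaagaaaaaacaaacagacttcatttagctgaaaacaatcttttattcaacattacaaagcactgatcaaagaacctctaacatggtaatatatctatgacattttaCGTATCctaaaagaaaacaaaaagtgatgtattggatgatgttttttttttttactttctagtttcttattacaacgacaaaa
LUX: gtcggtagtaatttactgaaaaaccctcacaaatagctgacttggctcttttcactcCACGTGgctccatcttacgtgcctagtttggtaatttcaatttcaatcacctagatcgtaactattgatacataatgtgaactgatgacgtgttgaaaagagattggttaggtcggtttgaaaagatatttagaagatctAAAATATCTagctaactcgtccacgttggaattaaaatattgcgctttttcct
TOC1: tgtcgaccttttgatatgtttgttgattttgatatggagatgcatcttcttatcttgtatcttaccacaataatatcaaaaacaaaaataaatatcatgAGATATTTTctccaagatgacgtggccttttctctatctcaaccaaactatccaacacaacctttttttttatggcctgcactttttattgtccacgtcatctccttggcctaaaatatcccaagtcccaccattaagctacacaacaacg

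The evening element, the word through which CCA1 and LHY bind evening genes, lay in 3 of the 10 promoters, those of TOC1, PRR5 and LUX, against 2.47% of the 18752 promoters searched. In TOC1 its first base lay 151 bases before the gene start, in PRR5 187 bases before it and in LUX 53 bases before it. PRR5 also held the only CCA1-binding site among the 10, a word found in 6.75% of promoters. The G-box, bound by light-signalling factors such as HY5 and the PIFs and present in targets of the pseudo-response regulators, lay in 5 of 10, namely CCA1, LHY, PRR7, LUX and PRR9, which held it at 2 places, against 7.44% of promoters. GATACG lay in ELF3 and ELF4, against 4.66% of promoters, and GATTCG in PRR9, against 8.38%. GGTCCCAC, the word that the TCP factor CHE binds in the CCA1 promoter, lay in CCA1 alone, against 0.469% of promoters. GI held none of the 6 words in this window. No matches overlapped one another. These are matches of letters and do not show binding in these seedlings.

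The dawn genes were lower in both overexpressors. CCA1 had 38.0, 32.7 and 24.5 in the SPCHΔ49 libraries, 42.1, 34.3 and 33.6 in the SPCHΔ49 basl-2 libraries, and 58.5 and 59.3 in WT. All 6 overexpressor libraries lay below both WT libraries, and SPCHΔ49 replicate 3 was the lowest of all. CCA1 fell to 31.7 ± 6.81 in SPCHΔ49 and 36.7 ± 4.73 in SPCHΔ49 basl-2, against 58.9 ± 0.546 in WT (SD, n = 3, 3 and 2), which is 0.539 and 0.622 times the WT mean. On the log2(signal + 1) scale, used for every fold change here, the changes were -0.89 ± 0.19 in SPCHΔ49 and -0.68 ± 0.19 in SPCHΔ49 basl-2 (SE), with limma adjusted p-values of 0.0126 and 0.0289. LHY, the partner of CCA1, had 14.2, 10.02 and 7.68 in SPCHΔ49, 12.1, 15.8 and 12.1 in SPCHΔ49 basl-2, and 27.8 and 17.6 in WT. Again every overexpressor library lay below both WT libraries, although the WT libraries differed from each other more than they did for CCA1. LHY fell in SPCHΔ49, by 1.03 ± 0.28 on the log2 scale (limma adjusted p = 0.0325), and its change of -0.70 ± 0.28 in SPCHΔ49 basl-2 did not pass the threshold of 0.05 (limma adjusted p = 0.0909).

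The call of LHY in SPCHΔ49 was lost when any of 5 single libraries was left out, with limma adjusted p-values of 0.0892 without SPCHΔ49 replicate 2, 0.0639 without SPCHΔ49 replicate 3, 0.0550 without SPCHΔ49 basl-2 replicate 1, 0.235 without WT replicate 1 and 0.0621 without WT replicate 2. CCA1 lost its call in SPCHΔ49 without WT replicate 1 (0.0951) or WT replicate 2 (0.0961), and in SPCHΔ49 basl-2 without SPCHΔ49 replicate 2 (0.0522), SPCHΔ49 basl-2 replicate 2 (0.0681) or 3 (0.0582), WT replicate 1 (0.139) or WT replicate 2 (0.142).

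**Figure D1:**
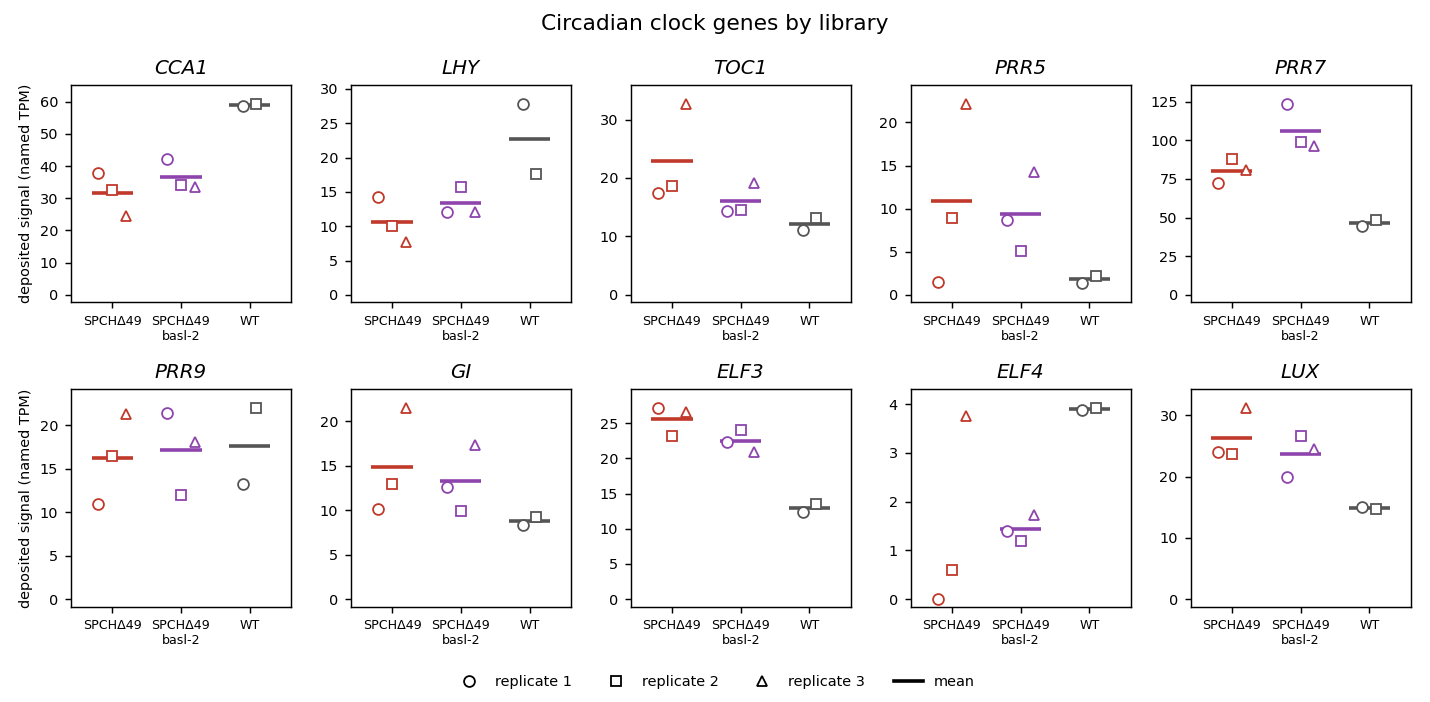
Deposited signal of the 10 clock genes in each library, with 1 panel per gene and the genotypes SPCHΔ49, SPCHΔ49 basl-2 and WT along the horizontal axis. Each point is a library, its shape gives the replicate number and the bar is the mean, left out for ELF4 in SPCHΔ49 because 1 library is listed at 0. CCA1 and LHY lie below WT in all 6 overexpressor libraries, PRR7, ELF3 and LUX lie above it, and PRR9 overlaps.

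Among the pseudo-response regulators, PRR7 rose in both lines. PRR7, a repressor of CCA1 and LHY active from morning to midday, had 72.3, 87.9 and 80.8 in SPCHΔ49, 123.4, 98.8 and 96.4 in SPCHΔ49 basl-2, and 44.8 and 48.1 in WT. Every overexpressor library lay above both WT libraries, and each SPCHΔ49 basl-2 library lay above each SPCHΔ49 library. The means were 80.3 ± 7.82 in SPCHΔ49, 106.2 ± 14.9 in SPCHΔ49 basl-2 and 46.5 ± 2.34 in WT, or 1.73 and 2.29 times the WT mean. The log2 changes were 0.77 ± 0.14 and 1.17 ± 0.14 (SE), with limma adjusted p-values of 0.00639 in SPCHΔ49 and 0.000996 in SPCHΔ49 basl-2. The SPCHΔ49 basl-2 call held when each of the 8 libraries was left out in turn, with a highest limma adjusted p of 0.0272, while the SPCHΔ49 call was lost without WT replicate 1 (0.0782) or WT replicate 2 (0.0565). PRR7 was also the most abundant of the 10, with a mean over all 8 libraries of 81.6, above 90.4% of listed genes.

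PRR9, the earliest regulator of the sequence, showed no separation of the genotypes. Its signals were 10.9, 16.5 and 21.2 in SPCHΔ49, 21.3, 12.0 and 18.1 in SPCHΔ49 basl-2, and 13.2 and 21.9 in WT, so that the 3 groups overlapped throughout. The log2 differences were -0.12 in SPCHΔ49 and -0.03 in SPCHΔ49 basl-2, with 95% intervals of -0.93 to 0.69 and -0.84 to 0.78 (limma adjusted p = 0.829 and 0.955). PRR7 passing and PRR9 not passing does not show that their differences were unequal, which was not tested.

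PRR5 and TOC1, the later regulators, had higher means in the overexpressors, which did not pass the threshold with all libraries in the fit. PRR5 had 1.45, 8.95 and 22.1 in SPCHΔ49, 8.66, 5.14 and 14.3 in SPCHΔ49 basl-2, and 1.43 and 2.22 in WT. In SPCHΔ49 replicate 1 its signal was within the WT range, and in SPCHΔ49 replicate 3 it was 15.3 times that of replicate 1. The log2 differences of 1.57 ± 0.86 and 1.79 ± 0.86 were large in size but not in relation to that spread (limma adjusted p = 0.216 and 0.145). Without SPCHΔ49 replicate 1 both passed, with log2 changes of 2.44 in SPCHΔ49 (limma adjusted p = 0.0252) and 1.79 in SPCHΔ49 basl-2 (0.0334). TOC1, the evening repressor of CCA1, had 17.4, 18.6 and 32.7 in SPCHΔ49, 14.4, 14.5 and 19.1 in SPCHΔ49 basl-2, and 11.1 and 13.2 in WT. All 6 overexpressor libraries lay above both WT libraries, and SPCHΔ49 replicate 3 was again the farthest from WT. The differences were 0.81 ± 0.27 in SPCHΔ49 and 0.36 ± 0.27 in SPCHΔ49 basl-2 (limma adjusted p = 0.0645 and 0.331).

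GI, which ties the clock to flowering and to protein turnover, had 10.07, 12.9 and 21.4 in SPCHΔ49, 12.6, 9.93 and 17.3 in SPCHΔ49 basl-2, and 8.37 and 9.21 in WT. Each overexpressor library was above both WT libraries, with the replicates 3 highest. The differences of 0.63 ± 0.32 and 0.52 ± 0.32 did not pass (limma adjusted p = 0.187 and 0.249).

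In the evening complex, ELF3 and LUX rose, while ELF4 did not pass the test. ELF3, the scaffold that brings the other subunits together, had 27.1, 23.1 and 26.5 in SPCHΔ49, 22.4, 24.0 and 20.8 in SPCHΔ49 basl-2, and 12.3 and 13.6 in WT. The replicates of each genotype lay close together and the overexpressors lay well above WT. Its log2 changes of 0.93 ± 0.11 and 0.75 ± 0.11 (SE) had limma adjusted p-values of 0.00116 in SPCHΔ49 and 0.00292 in SPCHΔ49 basl-2, and both calls held when each library was left out in turn, with highest values of 0.0290 and 0.0446. LUX, the subunit that binds DNA, had 24.1, 23.7 and 31.2 in SPCHΔ49, 19.9, 26.6 and 24.5 in SPCHΔ49 basl-2, and 15.1 and 14.7 in WT. No overexpressor library reached down to WT. Its log2 changes were 0.77 ± 0.16 and 0.62 ± 0.16, with limma adjusted p-values of 0.0130 and 0.0235. These calls were lost in SPCHΔ49 without WT replicate 1 (0.0941) or 2 (0.0991), and in SPCHΔ49 basl-2 without SPCHΔ49 basl-2 replicate 2 (0.0563), WT replicate 1 (0.121) or WT replicate 2 (0.128).

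ELF4, the small subunit that promotes ELF3's action, was the least abundant clock gene, with a mean signal above that of only 10.4% of listed genes. It was listed at 0 in SPCHΔ49 replicate 1 and had 0.601 and 3.76 in replicates 2 and 3, 1.40, 1.20 and 1.73 in SPCHΔ49 basl-2, and 3.88 and 3.92 in WT. Every overexpressor library was below both WT libraries, although SPCHΔ49 replicate 3 lay just under them. The fitted differences of -1.32 ± 0.57 and -1.01 ± 0.57 did not pass (limma adjusted p = 0.127 and 0.205). Without SPCHΔ49 replicate 3 the difference in SPCHΔ49 was -1.95 and passed (limma adjusted p = 0.00259). ELF4 thus lay on the other side of WT from ELF3 and LUX, at signals so low that the listed 0 can also be a failed estimate.

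**Figure D2:**
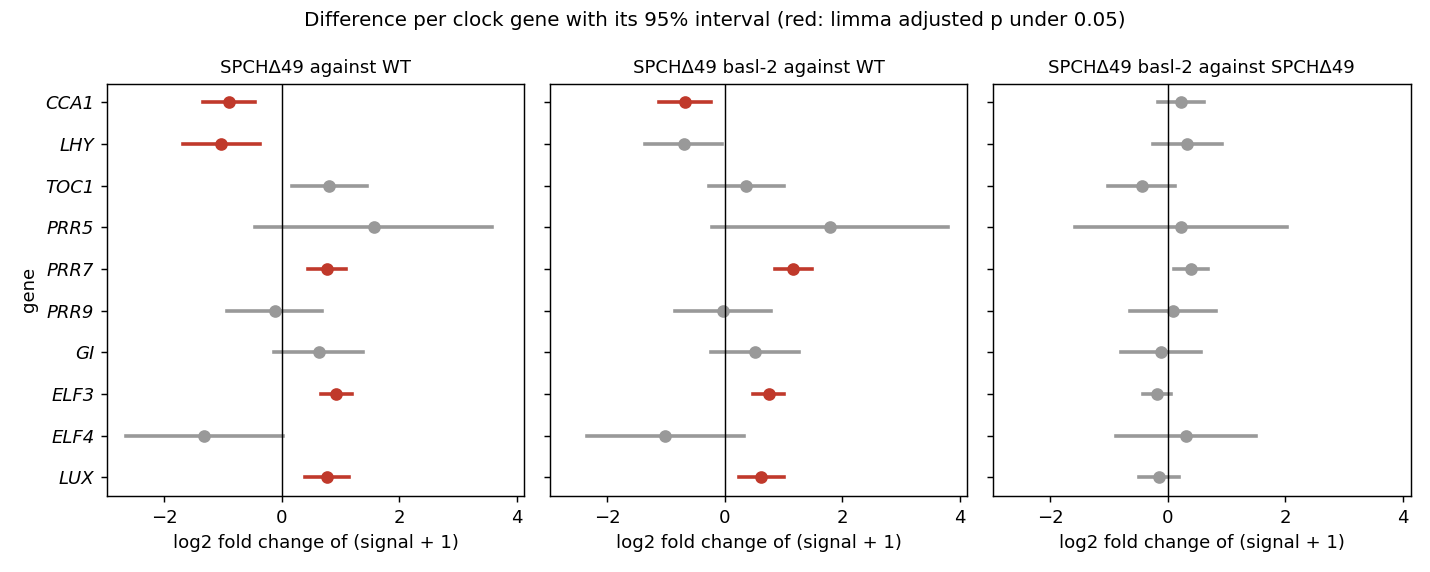
Log2 fold change of (signal + 1) for each clock gene, with its 95% interval, in 1 panel each for SPCHΔ49 against WT, SPCHΔ49 basl-2 against WT and SPCHΔ49 basl-2 against SPCHΔ49. Red marks genes with a limma adjusted p under 0.05, which are 5 in the first panel, 4 in the second and 0 in the third.

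Counted over the 10 genes, 5 passed in SPCHΔ49, where PRR7, ELF3 and LUX rose and CCA1 and LHY fell, against a background of 27.2% of all 18855 genes called in that comparison (9.90% higher and 17.3% lower). In SPCHΔ49 basl-2, 4 passed, where PRR7, ELF3 and LUX rose and CCA1 fell, against 34.3% of all genes (12.6% higher and 21.6% lower). The counts are 50% and 40% of 10 genes, and with so few genes and so high a background nothing particular to the clock is read from them. Without WT replicate 1 or WT replicate 2 the count was 1 in SPCHΔ49 (ELF3) and 2 in SPCHΔ49 basl-2 (PRR7 and ELF3), while all genes called numbered 1121 or 1136 in SPCHΔ49, against 5120 with both. For SPCHΔ49 basl-2 they numbered 1624 or 1752, against 6458. Without SPCHΔ49 basl-2 replicate 2, 2 clock genes passed in that line, and without SPCHΔ49 replicate 2, 3198 of all genes passed in SPCHΔ49. Separation of libraries was more common than calls. Every SPCHΔ49 library lay above both WT libraries for 5 genes and below both for 3. For the SPCHΔ49 basl-2 libraries these numbers were 6 and 3. How often libraries separated over all genes was not counted, so this separation is not read as a trait of the clock. The median log2 difference over the 10 genes was 0.70 in SPCHΔ49 and 0.44 in SPCHΔ49 basl-2, beside -0.01 and -0.06 over all genes. The median of the absolute difference was 0.85 and 0.69, beside 0.33 and 0.38 over all genes. Both comparisons use the same 2 WT libraries, so that the same gene passing in both is not an independent repeat. The direction of calls over all genes depended on scaling, since quantile normalisation gave 2765 higher and 2651 lower genes in SPCHΔ49, against 1867 and 3253 as deposited, and 3125 higher and 3207 lower in SPCHΔ49 basl-2, against 2382 and 4076. The 5 and 4 clock calls kept their direction and passed under quantile normalisation and under median-ratio rescaling.

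Between the overexpressor lines no clock gene passed. The lines differed in the basl-2 mutation and also in the level of SPCH, which in SPCHΔ49 basl-2 was 0.163 times that in SPCHΔ49 (log2 change -2.62, limma adjusted p = 0.00156), and these cannot be told apart. Of the 10, 1 had an unadjusted limma p under 0.05 between SPCHΔ49 basl-2 and SPCHΔ49, a share not counted over all genes. After adjustment 0 of the 10 passed, while 5.41% of all genes passed (2.05% higher and 3.36% lower). That background was itself unsteady, since the 1020 genes behind it numbered 151 without SPCHΔ49 replicate 2, 237 without SPCHΔ49 basl-2 replicate 1, and 421 to 620 without SPCHΔ49 replicate 1 or 3, SPCHΔ49 basl-2 replicate 2 or either WT library. The clock gene with the low unadjusted p was PRR7, at 106.2 ± 14.9 in SPCHΔ49 basl-2 and 80.3 ± 7.82 in SPCHΔ49, a log2 difference of 0.39 ± 0.12 with a 95% interval of 0.11 to 0.68 (limma adjusted p = 0.117), and it was the only clock gene whose libraries did not overlap between the lines. For CCA1 the interval was -0.17 to 0.61, for LHY -0.26 to 0.91, for ELF3 -0.42 to 0.05 and for LUX -0.49 to 0.19. These intervals bound the difference more tightly than that of PRR5, -1.57 to 2.03, or ELF4, -0.884 to 1.497, the widest of the 10. For TOC1 it was -1.02 to 0.12, for GI -0.79 to 0.56 and for PRR9 -0.64 to 0.81. A p above the threshold does not show that the lines had equal levels.

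In most of the evening-phased genes counted here, the replicates 3 of both overexpressors had the highest signal of their genotype, in some by a small margin. Genes were grouped by their known time of peak expression, and these counts were made after the values had been seen. Of 9 genes that peak from afternoon to evening (TOC1, PRR5, GI, ELF4, LUX and the outputs GRP7, GRP8, CAT3 and FT), SPCHΔ49 replicate 3 had the highest signal of its genotype in 9 and SPCHΔ49 replicate 1 the lowest in 8. In SPCHΔ49 basl-2, replicate 3 was the highest in 8 of the 9 and replicate 2 the lowest in 7. ELF3, of the evening complex, was not among the 9. It was highest in replicate 1 of SPCHΔ49 and lowest in replicate 3 of SPCHΔ49 basl-2. Of 15 genes that peak in the morning, replicate 3 was the lowest of its genotype in 11 in SPCHΔ49 and in 13 in SPCHΔ49 basl-2. The share of all genes highest or lowest in replicate 3 was not counted, so nothing particular to evening or morning genes is read from these counts. Deviations from the genotype means, taken over all genes, correlated at 0.756 between SPCHΔ49 replicate 3 and SPCHΔ49 basl-2 replicate 3. Over all genes, 8.25% differed at least 2-fold between SPCHΔ49 replicates 1 and 3, against 2.56% between replicates 1 and 2 and 2.95% between replicates 2 and 3. In SPCHΔ49 basl-2, 9.85% differed between replicates 2 and 3, 4.2% between replicates 1 and 2 and 3.69% between replicates 1 and 3, so that by this measure its replicate 3 did not stand apart from both others. Between the WT libraries 1.61% differed. No label gives the hour at which a library was harvested, and its part in this spread was not tested.

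Outputs of the evening varied between libraries as well. GRP7, an RNA-binding protein that feeds back on its own transcript under clock control, had 362, 751 and 1736 in SPCHΔ49, 417, 330 and 665 in SPCHΔ49 basl-2, and 267 and 314 in WT. SPCHΔ49 replicate 3 thus had 4.8 times the GRP7 signal of replicate 1. CAT3, the evening-phased catalase, had 1232, 2055 and 3641 in SPCHΔ49, 2425, 1192 and 3692 in SPCHΔ49 basl-2, and 724 and 879 in WT. Both replicates 3 reached similar CAT3 signals, above every other library. FT, the flowering signal induced at the end of long days, had 2.31, 2.74 and 8.38 in SPCHΔ49, 4.43, 1.30 and 15.0 in SPCHΔ49 basl-2, and 0.801 and 0.345 in WT. With this spread the 4 evening outputs listed gave 0 calls with limma in either line against WT. Before adjustment 3 of them in SPCHΔ49 and 2 in SPCHΔ49 basl-2 had a limma p under 0.05, a share not counted over all genes.

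Levels of clock genes relative to one another within a library were read from ratios of signals, which do not depend on the library's total. The ratios of CCA1 to TOC1 and to LUX set a morning gene against an evening gene. Those of PRR7 to CCA1 and of CCA1 to LHY compare genes of the morning. The ratio of CCA1 to TOC1 was 2.19, 1.75 and 0.750 in SPCHΔ49, 2.92, 2.37 and 1.76 in SPCHΔ49 basl-2, and 5.28 and 4.49 in WT. All 6 overexpressor libraries lay below WT, and in SPCHΔ49 replicate 3 TOC1 had the higher signal of the pair. The ratio of CCA1 to LUX was 1.58, 1.38 and 0.785 in SPCHΔ49, 2.11, 1.29 and 1.37 in SPCHΔ49 basl-2, and 3.89 and 4.03 in WT. The ratio of PRR7 to CCA1 was 1.90, 2.69 and 3.30 in SPCHΔ49, 2.93, 2.88 and 2.87 in SPCHΔ49 basl-2, and 0.766 and 0.812 in WT, so that PRR7 was the higher of the pair in every overexpressor library and the lower in both WT libraries. The ratio of CCA1 to its partner LHY, by contrast, overlapped between the genotypes, at 2.67, 3.26 and 3.19 in SPCHΔ49, 3.47, 2.17 and 2.78 in SPCHΔ49 basl-2, and 2.11 and 3.37 in WT.

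When both overexpressor libraries numbered 3 were left out, an alternative chosen after seeing the data, 6 clock genes passed in SPCHΔ49 and 5 in SPCHΔ49 basl-2. The count over all genes in this setting is not given here, so nothing particular to the clock is read from these counts. In SPCHΔ49, LHY lost its call (limma adjusted p = 0.0659), while TOC1, with a log2 change of 0.54 (0.0236), and ELF4, with -1.95 (0.00359), passed. In SPCHΔ49 basl-2, ELF4 passed with -1.09 (0.0171). CCA1, PRR7, ELF3 and LUX passed in both lines without these libraries.

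**Figure D3:**
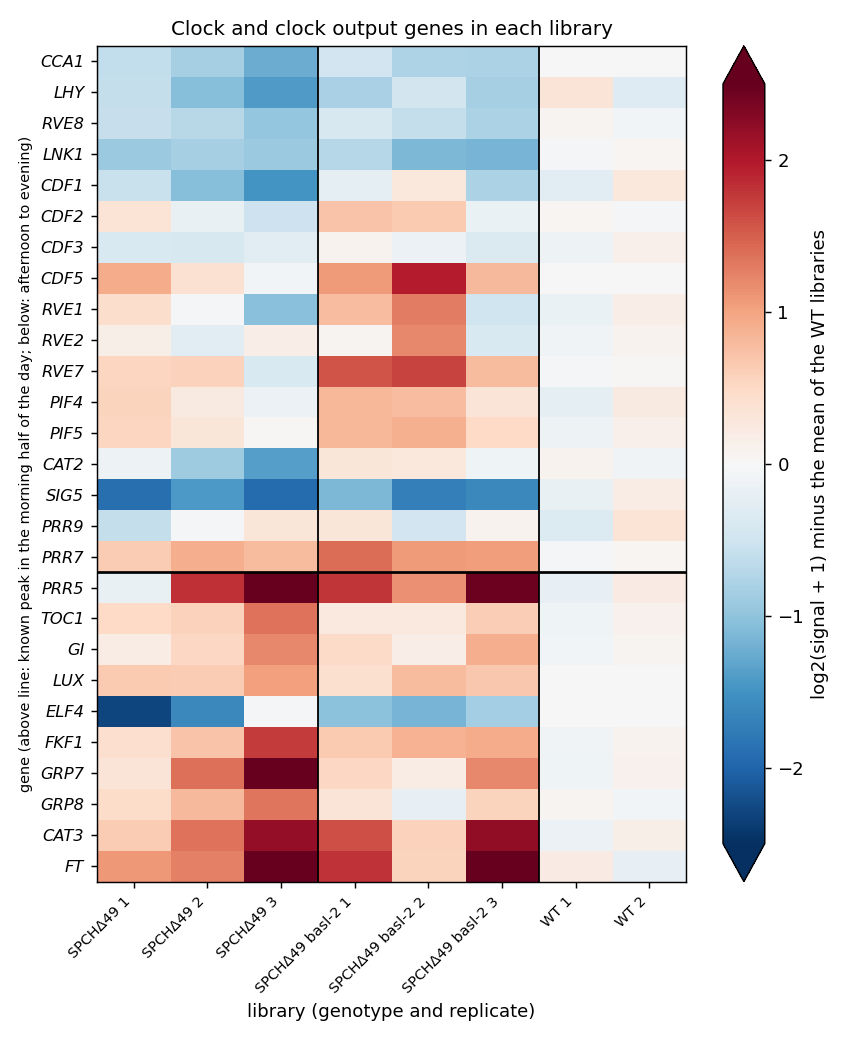
Log2(signal + 1) of clock and clock output genes in each library minus the mean of the WT libraries, with genes down the page and the SPCHΔ49, SPCHΔ49 basl-2 and WT libraries from left to right. Genes above the horizontal line are known to peak in the morning part of the day and those below it from afternoon to evening. Replicates 3 of both overexpressors are the reddest of their genotype for most genes below the line, including PRR5, GRP7, CAT3 and FT.

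The wider clock was described through 55 listed genes of 61 in lists of activators, paralogs and repressors, protein turnover factors and modifiers, light inputs and outputs. In SPCHΔ49, 4 rose and 5 fell, 16.4% of the 55 beside the 27.2% of all genes. In SPCHΔ49 basl-2, 16 rose and 5 fell, 38.2% beside the 34.3% of all genes. The median log2 difference was 0.21 and 0.37, beside -0.01 and -0.06 over all genes. Between SPCHΔ49 basl-2 and SPCHΔ49, 0 of the 55 passed with limma, beside 5.41% of all genes passing. Before adjustment 15 of the 55 had a limma p under 0.05, a share not counted over all genes. Most of these calls rested on both WT libraries, since leaving out WT replicate 1 or WT replicate 2 left 3 or 2 calls in SPCHΔ49. In SPCHΔ49 basl-2 the numbers were also 3 and 2, with 12 calls without SPCHΔ49 replicate 2 and 8 without SPCHΔ49 basl-2 replicate 1. Without SPCHΔ49 replicate 2 the count in SPCHΔ49 was 5. Only SIG5 in SPCHΔ49, and SIG5 and LNK1 in SPCHΔ49 basl-2, passed whichever library was left out. Under quantile normalisation 8 of the 9 calls in SPCHΔ49 and 16 of the 21 in SPCHΔ49 basl-2 held.

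Of 13 activators, 3 fell in both lines, beside 17.3% of all genes lower in SPCHΔ49 and 21.6% in SPCHΔ49 basl-2, a share close to theirs. RVE8, a MYB factor related to CCA1 that activates evening genes through the evening element, had 13.6, 12.5 and 10.13 in SPCHΔ49, 15.5, 13.3 and 11.5 in SPCHΔ49 basl-2, and 21.8 and 19.7 in WT, with log2 changes of -0.74 ± 0.16 and -0.60 ± 0.16 (limma adjusted p = 0.0155 and 0.0281). LNK1, a coactivator that RVE8 recruits, had 23.6, 25.5 and 23.7 in SPCHΔ49, 27.5, 20.4 and 20.0 in SPCHΔ49 basl-2, and 44.2 and 47.6 in WT. All 6 overexpressor libraries were far below WT, with log2 changes of -0.89 ± 0.14 and -1.003 ± 0.144 (limma adjusted p = 0.00442 and 0.00246). RVE3, of the same clade as RVE8, also passed as deposited, but not under quantile normalisation (limma adjusted p = 0.0849 in SPCHΔ49 and 0.0527 in SPCHΔ49 basl-2). Its WT libraries differed, at 2.22 and 11.96, and its overexpressor signals were 0.500, 0.422 and 1.76 for the SPCHΔ49 libraries, and 0.393, 0.424 and 0.463 for those of SPCHΔ49 basl-2. LWD1 and LWD2, WD-repeat proteins that promote CCA1 expression, rose in SPCHΔ49 basl-2, by 0.69 and 0.66 (limma adjusted p = 0.0120 and 0.0429). RVE4, RVE5, RVE6, LNK2, LNK3, LNK4, TCP20 and TCP22 passed in neither line.

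Among 6 listed paralogs and repressors, 1 rose in SPCHΔ49 and 3 in SPCHΔ49 basl-2, beside 9.90% and 12.6% of all genes higher, and EFL3 rose in both lines. EFL3, a paralog of ELF4, had 7.93, 6.89 and 5.19 in SPCHΔ49, 3.57, 5.61 and 3.26 in SPCHΔ49 basl-2, and 1.44 and 1.80 in WT, with log2 changes of 1.54 ± 0.23 and 0.95 ± 0.23 (limma adjusted p = 0.00347 and 0.0198). The paralog thus lay above WT in every library in which ELF4 itself lay below it. CHE, the TCP factor whose binding word stands in the CCA1 promoter and which represses CCA1, had 100.8, 75.0 and 54.3 in SPCHΔ49, 96.2, 133.1 and 79.9 in SPCHΔ49 basl-2, and 49.2 and 51.0 in WT, and rose in SPCHΔ49 basl-2 (0.995 ± 0.285, limma adjusted p = 0.0332). TPL, a corepressor of the pseudo-response regulators, also rose in SPCHΔ49 basl-2, by 0.40 (limma adjusted p = 0.0374), a call lost under quantile normalisation (0.0573). PRR3, EFL2 and EFL4 passed in neither.

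Of 9 turnover factors and modifiers, 2 rose in SPCHΔ49 and 4 others in SPCHΔ49 basl-2, beside 9.90% and 12.6% of all genes higher. TIC, which sustains clock amplitude, and PRMT5, an arginine methyltransferase needed for correct splicing of PRR9, rose in SPCHΔ49 by 0.48 and 0.43 (limma adjusted p = 0.0356 and 0.0355). ZTL, the F-box protein that marks TOC1 and PRR5, its homolog LKP2, and CKB3 and CKB4, subunits of the kinase that phosphorylates CCA1, rose in SPCHΔ49 basl-2 by 0.45, 0.79, 0.94 and 0.48 (limma adjusted p = 0.0270, 0.0117, 0.0130 and 0.0483). The calls of ZTL (0.0505) and CKB4 (0.0601) were lost under quantile normalisation, and that of CKB4 also under median-ratio rescaling (0.0541). Passing in one line and not in the other does not show a difference between the lines, and none of these 6 genes passed in that comparison.

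Of 12 light input genes, 1 rose and 1 fell in SPCHΔ49, and 4 rose and 1 fell in SPCHΔ49 basl-2, beside 9.90% higher and 17.3% lower, and 12.6% higher and 21.6% lower, over all genes. UVR8, the UV-B receptor, rose in both lines, by 0.54 and 0.46 (limma adjusted p = 0.0186 and 0.0291). HY5, a light-signalling factor that binds G-boxes, had 8.01, 7.69 and 6.37 in SPCHΔ49, 11.6, 14.7 and 9.23 in SPCHΔ49 basl-2, and 13.5 and 13.6 in WT. It fell in SPCHΔ49, by 0.80 ± 0.19 on the log2 scale (limma adjusted p = 0.0191), and its difference of -0.20 in SPCHΔ49 basl-2 did not pass (0.438). In SPCHΔ49 basl-2 the phytochromes PHYA and PHYC and the transposase-derived factor FHY3 rose, by 0.68, 0.33 and 0.35 (limma adjusted p = 0.0135, 0.0473 and 0.0167), and COP1, the ubiquitin ligase that removes HY5, fell by 0.40 (0.0227). The call of PHYC was lost under quantile normalisation (0.0572) and under median-ratio rescaling (0.0539).

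Of 11 morning-phased outputs, SIG5 showed the largest change. SIG5, a plastid sigma factor that carries clock information to chloroplast transcription, had 6.46, 9.05 and 6.17 in SPCHΔ49, 11.5, 7.37 and 7.91 in SPCHΔ49 basl-2, and 22.9 and 30.3 in WT, and fell by 1.75 ± 0.24 and 1.49 ± 0.24 on the log2 scale (limma adjusted p = 0.00191 and 0.00364). In the same libraries the summed mesophyll markers, which encode photosynthetic proteins, stood at 45.2 to 62% of the WT mean in SPCHΔ49 and 63.9 to 72.4% in SPCHΔ49 basl-2, and their part in the fall of SIG5 was not tested. RVE7, a MYB factor of the CCA1 family, had 42.3, 43.6 and 22.0 in SPCHΔ49, 88.2, 95.05 and 50.8 in SPCHΔ49 basl-2, and 28.5 and 29.3 in WT, and rose in SPCHΔ49 basl-2 (1.35 ± 0.36, limma adjusted p = 0.0247). CDF5, a DOF repressor of flowering genes, and PIF5, a growth-promoting bHLH factor, rose there too, by 1.28 and 0.74 (limma adjusted p = 0.0386 and 0.0191). Of the 11 in all, 0 rose and 1 fell in SPCHΔ49, beside 9.90% of all genes higher and 17.3% lower. In SPCHΔ49 basl-2, 3 rose and 1 fell, beside 12.6% higher and 21.6% lower.

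**Figure D4:**
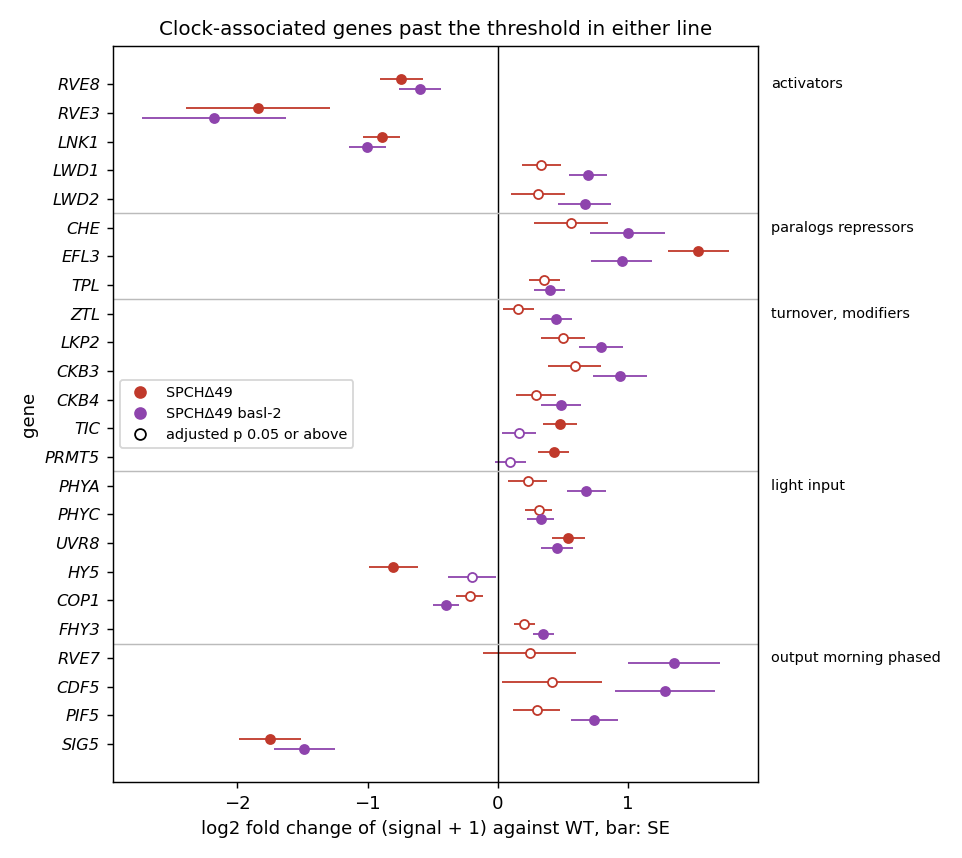
Log2 fold change of (signal + 1) against WT for the 24 clock-associated genes that passed in at least one line, with SPCHΔ49 drawn above SPCHΔ49 basl-2 for each gene, bars for the SE and genes grouped by role. Filled points have a limma adjusted p under 0.05. RVE8, RVE3, LNK1 and SIG5 lie below 0 in both lines, and EFL3 and UVR8 above it.

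Of 14198 other genes with a mean signal of at least 5, those whose pattern over the 8 libraries was most like that of CCA1 were AT5G21430, named NdhU in RefSeq, AT5G08720 and VTE1 (AT4G32770), with Pearson's r on the log2 scale of 0.985, 0.984 and 0.983. NdhU had 50.3, 41.1 and 28.3 in SPCHΔ49, 56.4, 52.6 and 46.8 in SPCHΔ49 basl-2, and 112.3 and 113.6 in WT. The genes most like TOC1 were AT3G58570, AT1G09870 and AT5G57035, with r of 0.977, 0.972 and 0.969. AT5G57035 had 10.06, 10.8 and 17.01 in SPCHΔ49, 8.36, 6.89 and 12.1 in SPCHΔ49 basl-2, and 6.31 and 7.25 in WT, which repeats the position of SPCHΔ49 replicate 3 as the highest library. The 8 points share their genotypes and libraries, and the correlations describe these libraries alone.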

How the data were processed

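RNA-seq libraries of 8 whole-seedling samples (3 SPCHΔ49, 3 SPCHΔ49 basl-2 and 2 WT, grouped by the genotype in the labels) were read from 1 table per sample and 1 of the whole series, which differed by at most 4.96e-06. Per the submitters' processing notes the authors used Trimmomatic 0.38, kallisto 0.44.0 and sleuth. The annotation, the summing of transcripts to genes, the choice of the 18855 genes and the use of strand were not given in the sources used here. Reads shared by close paralogs such as CCA1 and LHY or GRP7 and GRP8 may therefore be split between them. The values deposited by the authors are named TPM, but their totals differ between libraries (852202 to 1075376), which TPM would not, so they were treated as a signal; the depth in reads is unknown.

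The fit used limma (version 3.58.1, under R version 4.3.3). Signals were logged as log2(signal + 1) and each genotype was given its own mean, with the 8 samples together, a variance trend with intensity, two-sided tests and Benjamini-Hochberg adjustment over 18855 genes at a threshold of 0.05. A filter of at least 1 in at least 2 samples removed 0 genes. The scripts were tested on simulated data. Promoters were read from RefSeq's TAIR10.1 assembly, in which 18753 of the listed genes had a match and 102 had none. Named were all 10 clock genes, clock-associated genes past the threshold in at least 1 comparison, and the 3 genes most correlated with CCA1 and with TOC1. GRP7, CAT3, FT and the associated genes that did not pass were named after their values had been seen. The members and the lists were chosen with earlier results of these data known. Alternatives were other pseudocounts, filters, scalings and fits, the replicate number as a block, and each library left out in turn. Leaving out both overexpressor libraries numbered 3 was added after seeing the data.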

Additional observations from a re-analysis of the deposited data

How the results depend on the processing

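Across 537 values of clock genes under other settings, 494 kept their direction and their side of the threshold, 21 lost their call, 11 gained one and 11 changed sign. The setting without a filter is among them and repeated the main fit, since the filter removed 0 genes, so its values could not differ. The sign changed only in differences that had not passed, and only when 1 library was left out. These log2 differences ranged from -0.46 to 0.23 for PRR9 in SPCHΔ49 against WT and from -0.37 to 0.32 in SPCHΔ49 basl-2 against WT. Between SPCHΔ49 basl-2 and SPCHΔ49 they ranged from -0.65 to 0.97 for PRR5, -0.16 to 0.31 for PRR9, -0.34 to 0.17 for GI and -0.18 to 0.94 for ELF4. ELF4 was not tested under the filter on a mean of at least 5. Leaving out each library in turn gave 1 to 6 clock genes called in SPCHΔ49 and 2 to 5 in SPCHΔ49 basl-2, and 0 in the comparison of the lines. For clock-associated genes the counts were 2 to 11, 2 to 22 and 0 to 2, and for all genes 1121 to 5636, 1624 to 7052 and 151 to 1242, in SPCHΔ49 against WT, SPCHΔ49 basl-2 against WT and SPCHΔ49 basl-2 against SPCHΔ49. With 1 WT library left, that library is assumed to vary like the other groups, and fewer samples remain. Between the lines, 671 genes passed under the mean filter, where fewer genes were tested, and 495 when only these genotypes were fitted, where fewer samples were used, against 1020. Fitting only SPCHΔ49 and WT left LHY at an adjusted p of 0.0572 in limma, and fitting only SPCHΔ49 basl-2 and WT added PRR5 (0.0299) and ELF4 (0.00996). Without both libraries numbered 3, 14 clock-associated genes passed in SPCHΔ49 against 9, and 1 against 0 between the lines. The count over all genes in this setting is not given here, and the cause was not tested.

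The libraries did not follow their replicate numbers throughout, and with so few libraries the correlations do not settle whether the numbers pair them. Deviations from the genotype means correlated over genes at -0.169, -0.091 and 0.756 between the same-numbered libraries of SPCHΔ49 and SPCHΔ49 basl-2, whereas SPCHΔ49 replicate 1 and SPCHΔ49 basl-2 replicate 2 had 0.772, so not every library correlated best with its own number. With the replicate number as a block, 7 clock genes passed in SPCHΔ49, adding TOC1 (limma adjusted p = 0.0262) and ELF4 (0.0350), 4 in SPCHΔ49 basl-2 and 0 between the lines. Clock-associated calls with the block were 15, 30 and 4, and calls over all genes 6446, 8045 and 1494. The depth in reads is unknown, which limits what can be said of ELF4.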
